A study of Mus musculus with 9 samples.

Results

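Cholesterol genes of white adipose tissue were examined in 9 male mice, as a list of 31 genes for the synthesis of cholesterol, its control, its storage and transport in the cell, and its efflux. The list was matched by gene symbol to the annotated transcript clusters of a Clariom S mouse array, the probe sets that each stand for a gene. It found 28 of the 31 genes, each by a single cluster, among 19505 genes in all: 16 synthesis enzymes, 4 genes that control the transcription factor SREBP2, 3 genes of intracellular sterol transport, and 5 genes of efflux and of the nuclear receptor LXR. Acat2, Soat1 and Nr1h2 were not matched and were not analysed here. Soat1, which esterifies cholesterol for storage, was the storage enzyme of the list, so the genes called storage and efflux below are the 3 transport genes and the 5 genes of efflux and LXR.

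Each group held 3 arrays, 1 per sample. The first group was ob/ob mice (C57BL/6JHamSlc-ob/ob, obese for want of functional leptin) dosed orally with VE, a Vigna umbellata (rice bean) extract, at 100 mg/kg over 6 weeks. The next was ob/ob mice that received vehicle, and the last was wild type mice (C57BL/6JHamSlc-+/+) that received vehicle. All were obtained at 6 weeks of age and ate standard chow. The ob/ob mutation is carried in every cell from birth, and the fat depot was not stated, which limits what the groups can stand for. The values are log2 signals normalized by the submitters. Levels are compared between groups for the same gene and not between genes, except that Ch25h is set against the median of each array.

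Cells build cholesterol from acetyl-CoA by way of mevalonate, squalene and lanosterol. When membranes of the endoplasmic reticulum run short of sterol, SCAP escorts SREBP2 to the Golgi apparatus, where it is cut and sent to the nucleus to switch on the synthesis genes; INSIG proteins hold SCAP back when sterol is plentiful. LXR answers to oxysterols and switches on export by the transporters ABCA1 and ABCG1. Fat cells keep much of the body's cholesterol in the membranes and coat of their lipid droplets, and macrophages of obese fat take up lipid that they must store, hydrolyse or export.

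The promoters below are shown because the synthesis genes share a short sequence there that the matched efflux genes lack there. The 250 bases upstream of each start were read from RefSeq's promoter table, build GRCm38.p6, which matched 22 of the 28 measured genes; Abcg1, Fdft1, Fdps, Npc1, Sqle and Stard4 had no entry. CCAAT, the box bound by the factor NF-Y that works beside SREBP2, occurred on either strand in 13 of 13 synthesis genes, in 3 of 4 control genes (not Scap), in Npc2, and in 0 of 4 efflux and LXR genes. It occurred in 37.5% of the 27025 genes in that table. TCACNCCAC, a form of the sterol regulatory element, was searched on both strands too. It was found in Hmgcs1 alone among the 22, and in 1.22% of all genes in the table. The motifs do not overlap in the windows shown, and capitals mark them (ATTGG is CCAAT on the other strand). For Dhcr7, which has 3 starts, the window with the most matches is given. A match is a description of these letters and not evidence of binding.
Hmgcs1, chr13:119690101-119690350, plus strand: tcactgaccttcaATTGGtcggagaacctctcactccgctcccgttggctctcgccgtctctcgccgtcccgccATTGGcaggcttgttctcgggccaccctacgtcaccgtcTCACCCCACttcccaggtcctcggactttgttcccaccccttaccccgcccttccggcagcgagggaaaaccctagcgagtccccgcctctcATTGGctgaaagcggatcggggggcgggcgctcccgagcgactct
Mvk, chr5:114444019-114444268, plus strand: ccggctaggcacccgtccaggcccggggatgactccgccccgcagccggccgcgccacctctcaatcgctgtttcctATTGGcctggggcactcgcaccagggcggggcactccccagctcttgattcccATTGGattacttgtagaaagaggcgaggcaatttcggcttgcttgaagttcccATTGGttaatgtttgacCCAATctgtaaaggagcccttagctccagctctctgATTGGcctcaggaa
Hsd17b7, chr1:169969206-169969455, minus strand: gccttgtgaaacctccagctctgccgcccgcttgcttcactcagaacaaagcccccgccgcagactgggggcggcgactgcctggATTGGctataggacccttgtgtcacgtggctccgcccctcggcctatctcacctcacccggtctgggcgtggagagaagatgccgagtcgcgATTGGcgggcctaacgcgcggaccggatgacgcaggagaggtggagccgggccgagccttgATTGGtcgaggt
Ebp, chrX:8193513-8193762, minus strand: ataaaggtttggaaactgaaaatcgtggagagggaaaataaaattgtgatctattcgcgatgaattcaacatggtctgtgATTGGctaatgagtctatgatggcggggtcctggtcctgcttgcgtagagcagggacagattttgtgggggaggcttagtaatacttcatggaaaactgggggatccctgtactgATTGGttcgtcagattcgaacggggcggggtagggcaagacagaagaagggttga
Dhcr7, chr7:143829964-143830213, plus strand: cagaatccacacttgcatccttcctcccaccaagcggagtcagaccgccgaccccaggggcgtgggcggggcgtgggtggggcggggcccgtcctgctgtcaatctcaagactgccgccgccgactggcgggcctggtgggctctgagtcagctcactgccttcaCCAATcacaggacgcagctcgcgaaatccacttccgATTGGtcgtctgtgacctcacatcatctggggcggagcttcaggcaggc
Abca1, chr4:53159896-53160145, minus strand: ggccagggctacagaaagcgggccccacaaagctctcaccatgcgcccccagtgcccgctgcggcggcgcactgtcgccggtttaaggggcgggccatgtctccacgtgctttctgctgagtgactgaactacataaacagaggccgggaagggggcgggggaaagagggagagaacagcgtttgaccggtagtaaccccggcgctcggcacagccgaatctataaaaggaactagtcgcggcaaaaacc

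The tissue label and the arrays were checked against marker genes before the comparisons. The list of 9 measured fat cell markers averaged 16.48 to 16.85 on the VE arrays and 16.36 to 16.69 on the ob/ob vehicle arrays. On wild type arrays 1, 2 and 3 it averaged 15.69, 15.45 and 16.65. Of 11 macrophage markers, 10 were called higher in vehicle-treated ob/ob mice when set against wild type (9.02% of all clusters). Their list averaged 12.76 to 13.09 in VE, 12.57 to 13.01 in ob/ob vehicle and 7.40 to 8.86 in wild type mice. Epithelial markers went the other way, with 11 of 12 lower in ob/ob vehicle mice (5.05% of all clusters). The epithelium list averaged 4.50 to 5.02 in VE, 4.77 to 4.86 in ob/ob vehicle, and 9.66, 9.97 and 7.76 on wild type arrays 1, 2 and 3. Wild type arrays 1 and 2 thus stood apart, with more epithelial and less fat cell signal than array 3. The calls against wild type mice are also given without these 2 arrays. In the fit without them, the macrophage and epithelium lists had median differences of 3.78 and -3.0 between ob/ob vehicle and wild type mice. The single wild type array left in that fit is assumed to vary like the other groups. That array, array 3, still lay above every ob/ob array in the epithelium list. A list of 6 hepatocyte markers averaged 14.70 on it, and 11.99 and 7.19 on wild type arrays 1 and 2. On the ob/ob arrays the hepatocyte list averaged 12.04 to 15.08. In bulk tissue, fewer cells of a type and less RNA per cell cannot be told apart. Lep, the gene mutated in ob/ob mice, read 18.75 to 19.02 in VE and 18.77 to 19.24 in ob/ob vehicle mice. It read 14.22, 13.22 and 16.72 on wild type arrays 1, 2 and 3. Since its transcript is still made in ob/ob mice, this does not check the genotype.

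**Figure D1:**
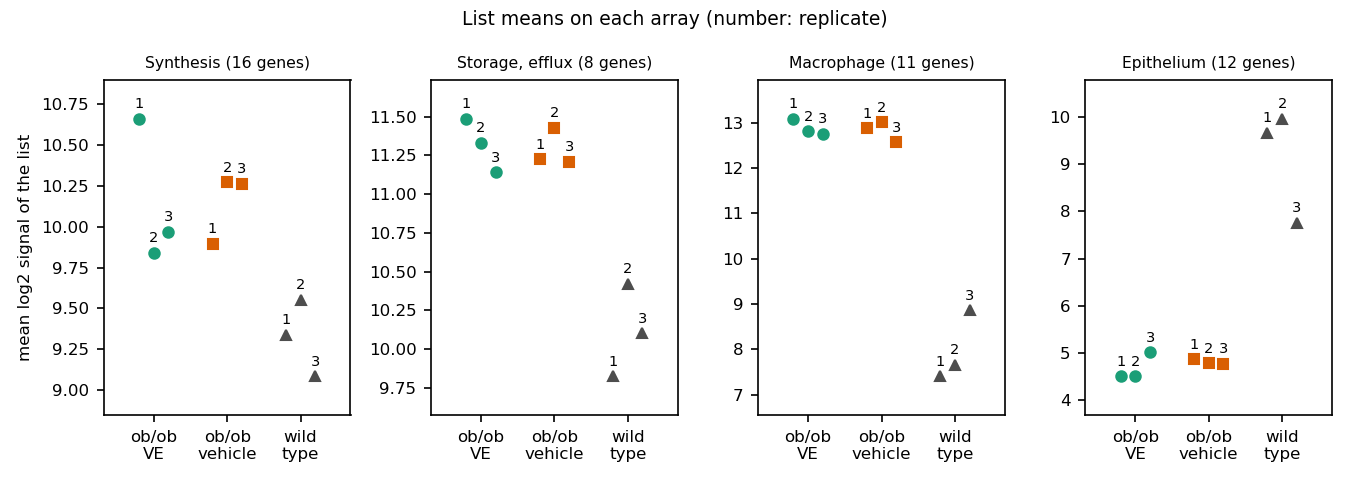
Mean log2 signal of 4 gene lists on each array (y axis, scale differing by panel) for ob/ob mice given VE, ob/ob mice given vehicle and wild type mice (x axis), with the replicate number beside each point. The synthesis list and the storage and efflux list were higher on all 6 ob/ob arrays than on any wild type array, and wild type arrays 1 and 2, at 9.66 and 9.97, carried the highest epithelial signal.

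The first comparison, of the ob/ob vehicle group with the wild type group, asked how these genes stand in obese, leptin-deficient animals. Of the 28 genes, 11 rose in the ob/ob animals, 2 fell and 15 did not pass (limma's moderated test, Benjamini-Hochberg adjusted p under 0.05 over all annotated clusters). Over all 19572 annotated clusters, 9.02% were called higher and 5.05% lower. The highest rises were those of Abcg1, an exporter of cholesterol to lipoproteins, at 14.1-fold, and of Dhcr7, the reductase of the last synthesis step, at 10.8-fold. The 2 genes that fell were Fdft1, which encodes squalene synthase, and Stard4, which carries sterol between membranes. The groups did not overlap for 16 of the 28 genes, against 28.9% of all clusters. The median log2 difference of the 28 genes was 0.76, and that of all clusters was -0.037.

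**Figure D2:**
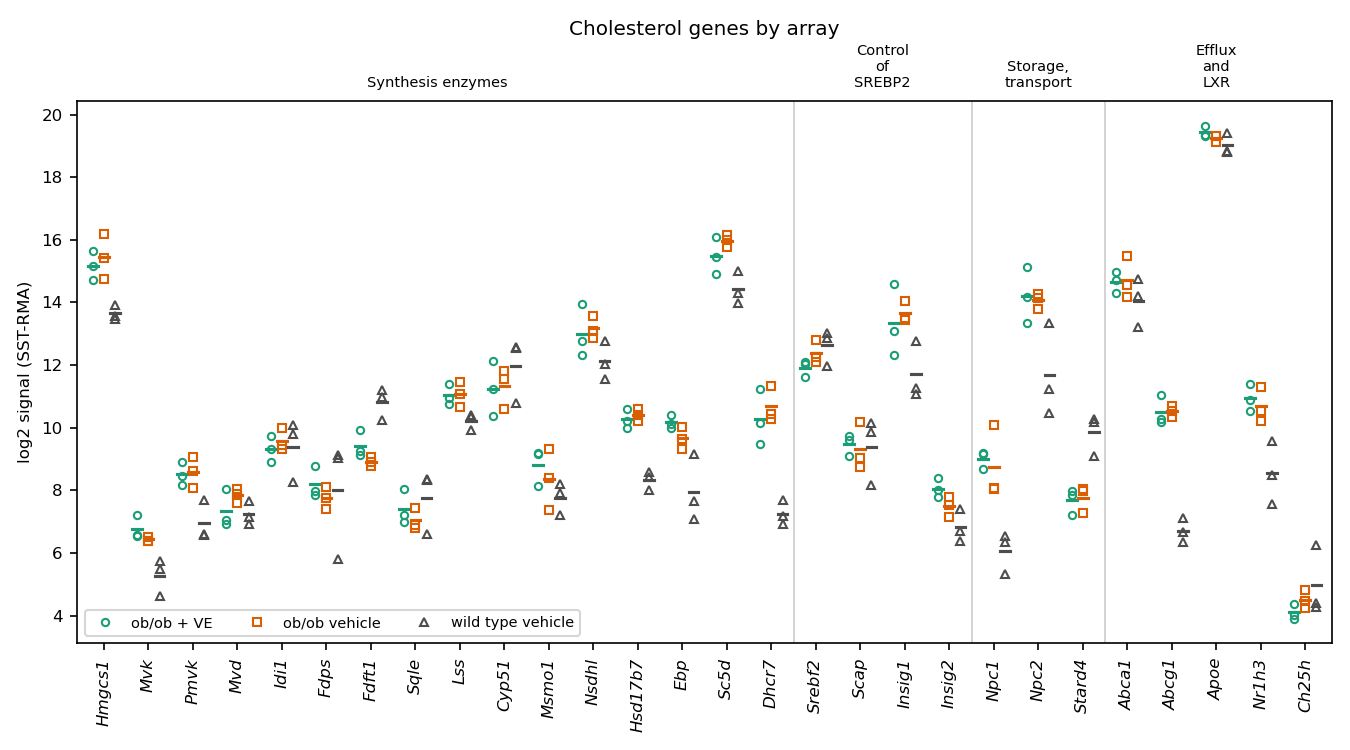
Log2 signal (y axis) of the 28 measured genes (x axis, by role) on each array, with bars at group means; circles are ob/ob mice given VE, squares ob/ob mice given vehicle and triangles wild type mice. Abcg1, Dhcr7, Hsd17b7 and Npc1 show every ob/ob array above every wild type array, and Fdft1 and Stard4 show the reverse.

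Synthesis begins with the condensation by Hmgcs1, and Hmgcs1, Mvk and Pmvk, which act in turn, all passed as higher in ob/ob vehicle mice. Hmgcs1 read 15.63, 15.15 and 14.73 with VE, 14.76, 15.43 and 16.19 with vehicle, and 13.57, 13.47 and 13.91 in wild type mice. All 6 ob/ob arrays lay above the wild type arrays, and ob/ob vehicle exceeded wild type by 1.81 ± 0.37 (log2, SE, n = 3; limma adjusted p = 0.00968). The kinase Mvk, which phosphorylates mevalonate, read 7.21, 6.53 and 6.57 with VE, 6.39, 6.52 and 6.40 with vehicle, and 4.63, 5.74 and 5.48 in wild type mice. Its ob/ob vehicle values were nearly the same on the 3 arrays, and they exceeded the wild type by 1.15 ± 0.32 (adjusted p = 0.0367 by limma). Pmvk, the next kinase, read 8.90, 8.18 and 8.46 with VE, 8.08, 8.62 and 9.08 with vehicle, and 6.61, 6.58 and 7.68 in wild type mice. Wild type array 3 came closest to the ob/ob arrays, and the difference between ob/ob vehicle and wild type was 1.64 ± 0.37 (adjusted p = 0.0159 by limma). Mvd, the decarboxylase that follows, read 8.06, 6.93 and 7.05 with VE, 8.05, 7.89 and 7.60 with vehicle, and 6.92, 7.67 and 7.14 in wild type mice. Its groups overlapped, and 0.60 ± 0.34 between ob/ob vehicle and wild type did not pass (adjusted p = 0.281 by limma).

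Of the enzymes from isoprenoid units to squalene and its epoxide, 1 of 4 passed, as lower (5.05% of all clusters were called lower). Fdft1, squalene synthase, read 9.26, 9.12 and 9.92 with VE, 8.92, 9.07 and 8.77 with vehicle, and 10.98, 11.22 and 10.26 in wild type mice. All ob/ob arrays lay below all wild type arrays, and ob/ob vehicle differed from wild type by -1.90 ± 0.31 (log2, SE, n = 3; limma adjusted p = 0.00299). The isomerase Idi1 (0.20 ± 0.45), the farnesyl diphosphate synthase Fdps (-0.24 ± 0.75) and the squalene epoxidase Sqle (-0.73 ± 0.48) did not pass. Wild type arrays were far apart in these genes. Fdps read 7.75, 8.10 and 7.42 in ob/ob vehicle, and 9.05, 9.14 and 5.81 in wild type mice. The same split held for Sqle, at 6.89, 7.43 and 6.81 in ob/ob vehicle, against 8.33, 8.38 and 6.60 in wild type mice. Wild type arrays 1 and 2 were the high ones in both genes, as they were for the epithelium list, and the part of epithelium in these values was not tested. Without wild type array 3, Fdps and Sqle were lower in ob/ob vehicle mice at -1.34 and -1.31 (adjusted p = 0.0193 and 0.0268 by limma). Without wild type arrays 1 and 2, Fdps was higher at 1.95 (adjusted p = 0.0164 by limma), so its direction depended on which wild type mice were used.

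Of the 8 enzymes that make and convert lanosterol, 4 passed as higher in ob/ob vehicle mice and 4 did not pass. Of all clusters, 9.02% were called higher. Dhcr7 read 11.24, 10.16 and 9.48 with VE, 10.28, 11.32 and 10.45 with vehicle, and 7.68, 7.17 and 6.92 in wild type mice. The lowest ob/ob array stood well above the highest wild type array, and ob/ob vehicle was higher by 3.43 ± 0.45 (log2, SE, n = 3; limma adjusted p = 0.000815). Hsd17b7, a sterol ketone reductase, read 10.60, 9.99 and 10.23 with VE, 10.23, 10.41 and 10.61 with vehicle, and 8.0, 8.60 and 8.43 in wild type mice. Its groups were tight and apart, with a difference of 2.07 ± 0.26 between ob/ob vehicle and wild type (adjusted p = 0.00057 by limma). Ebp, a sterol isomerase, read 10.41, 9.99 and 10.13 with VE, 10.03, 9.33 and 9.63 with vehicle, and 7.08, 7.65 and 9.15 in wild type mice. Wild type array 3 came near the ob/ob vehicle arrays, and the difference was 1.70 ± 0.46 (adjusted p = 0.0338 by limma). The desaturase Sc5d read 16.10, 15.46 and 14.90 with VE, 16.16, 16.01 and 15.76 with vehicle, and 14.29, 13.99 and 15.02 in wild type mice. Vehicle arrays lay above the wild type arrays by 1.54 ± 0.36 (adjusted p = 0.0167 by limma).

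The other late enzymes did not pass. The lanosterol synthase Lss (0.85 ± 0.28, adjusted p = 0.0764 by limma) and the dehydrogenase Nsdhl (1.05 ± 0.44, adjusted p = 0.149) had no overlap between ob/ob vehicle and wild type arrays. The same was true of 28.9% of all clusters. The methylsterol oxidase Msmo1 stood at 0.59 ± 0.49 and the lanosterol demethylase Cyp51 at -0.66 ± 0.58. Cyp51 read 10.60, 11.81 and 11.55 in ob/ob vehicle, and 12.59, 12.55 and 10.79 in wild type mice, again with wild type arrays 1 and 2 as the high ones. In all, 7 of 16 synthesis enzymes rose in ob/ob vehicle mice, 1 fell and 8 did not pass. Of all clusters, 9.02% were called higher and 5.05% lower. The differences of the 16 ran from -1.90 to 3.43, with 0.95 as the median.

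Without wild type arrays 1 and 2, Dhcr7 (3.76), Hsd17b7 (1.99) and Fdft1 (-1.34) still passed, at adjusted p of 0.00416, 0.00463 and 0.0444 by limma. Hmgcs1 (1.55), Mvk (0.96), Pmvk (0.91), Ebp (0.51) and Sc5d (0.96) kept their direction and did not pass, at adjusted p from 0.0974 to 0.429. Some calls also ended when 1 array was left out. That of Pmvk ended without wild type array 1 or either of ob/ob vehicle arrays 2 and 3 (adjusted p from 0.0506 to 0.064 by limma), and that of Sc5d without ob/ob vehicle array 1 or 2 (0.0599 to 0.0617). Mvk lost its call without VE array 2 or 3, wild type array 1, or any of the ob/ob vehicle arrays (0.0545 to 0.117). Ebp kept its call only without wild type array 3 and lost it without any other array (0.0512 to 0.11).

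**Figure D3:**
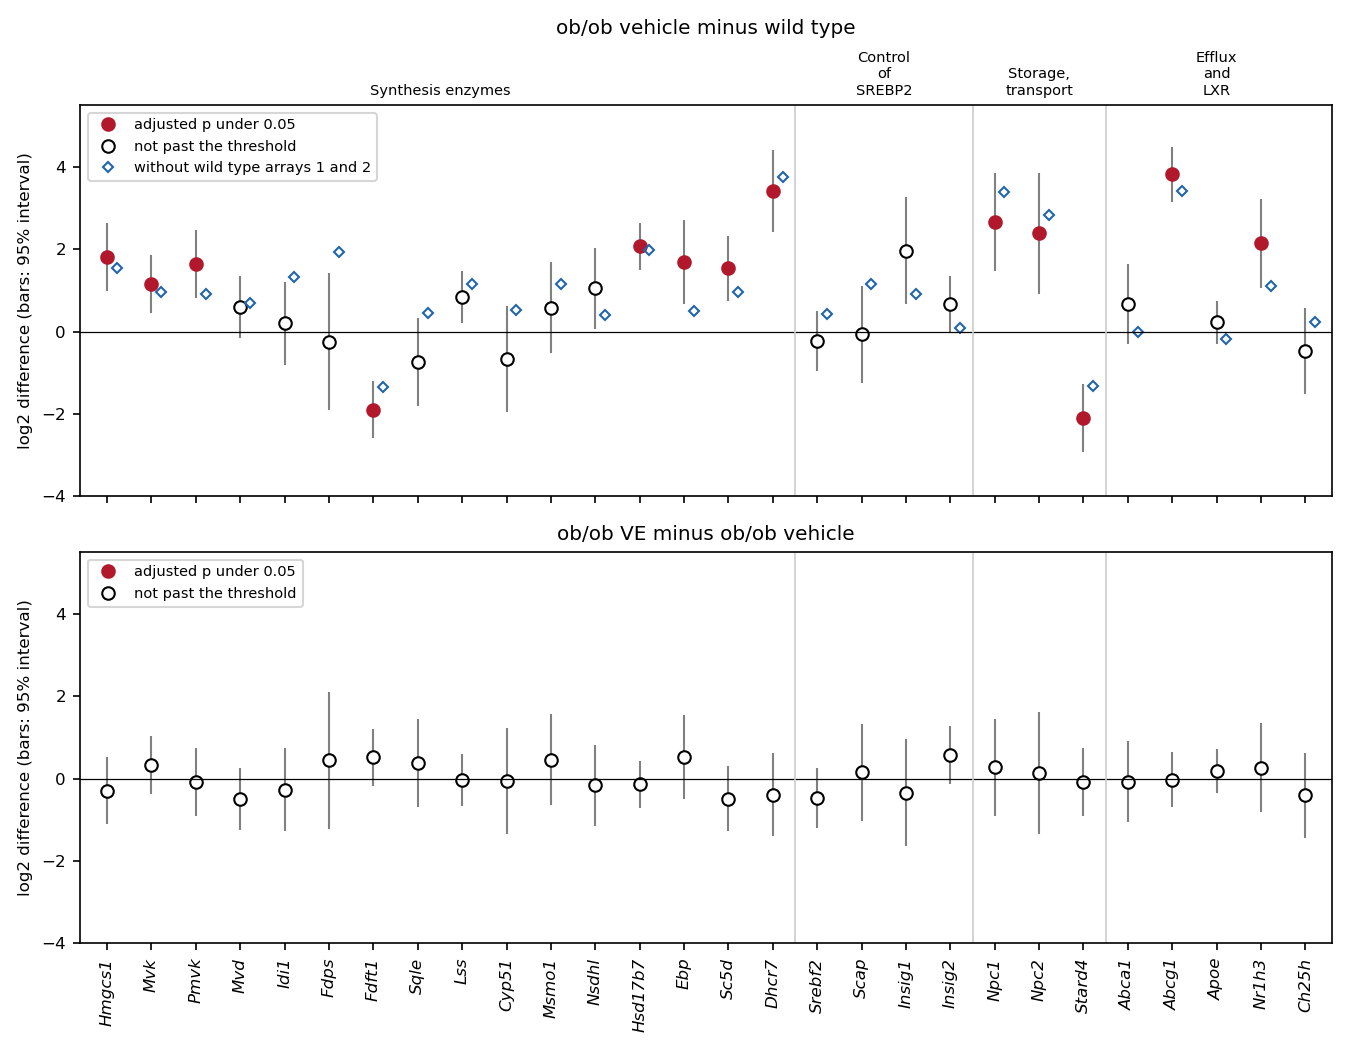
Log2 difference (y axis, bars the 95% confidence interval of the fit) of the 28 genes (x axis, by role) for ob/ob vehicle minus wild type (top) and ob/ob VE minus ob/ob vehicle (bottom), on the same scale. Filled points passed an adjusted p of 0.05 and diamonds are the differences without wild type arrays 1 and 2. In the top panel 13 genes passed (14.1% of all clusters) and in the bottom panel 0 (0.0255%).

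The genes that control SREBP2 gave no call between ob/ob vehicle and wild type mice, with 0 of 4 past the threshold (1, Insig1, had an unadjusted p under 0.05 in limma, against 28.4% of all clusters). Insig1, itself a target of SREBP2, read 14.59, 12.31 and 13.09 with VE, 13.44, 13.52 and 14.06 with vehicle, and 11.27, 11.08 and 12.76 in wild type mice. The ob/ob vehicle arrays lay above the wild type arrays, and the difference of 1.97 ± 0.58 (log2, SE, n = 3) missed the threshold by little (adjusted p = 0.0502 by limma). It passed in 10 of the 22 alternative settings, among them those without VE array 1, VE array 2 or wild type array 3, and without wild type arrays 1 and 2 it was 0.91 (adjusted p = 0.487). Insig2, the related retention protein, read 7.78, 8.0 and 8.40 with VE, 7.14, 7.79 and 7.54 with vehicle, and 6.37, 6.72 and 7.40 in wild type mice. The vehicle and wild type arrays overlapped, at 0.66 ± 0.32 (adjusted p = 0.204 by limma). Srebf2, which encodes SREBP2, read 12.03, 11.61 and 12.11 with VE, 12.26, 12.81 and 12.11 with vehicle, and 12.88, 13.03 and 11.97 in wild type mice. Neither Srebf2 (-0.23 ± 0.33) nor Scap (-0.07 ± 0.53) passed, and in both genes wild type array 3 was the lowest of its group.

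Of the 3 transport genes, Npc1 and Npc2 were higher in ob/ob vehicle mice and Stard4 was lower. Npc1, the membrane protein by which cholesterol leaves the lysosome, read 8.68, 9.21 and 9.15 with VE, 8.08, 10.09 and 8.06 with vehicle, and 6.55, 6.34 and 5.34 in wild type mice. Ob/ob vehicle array 2 was high within its group, and ob/ob vehicle exceeded wild type by 2.67 ± 0.53 (log2, SE, n = 3; limma adjusted p = 0.00853). Npc2, its soluble partner inside the lysosome, read 15.12, 14.16 and 13.35 with VE, 14.28, 13.80 and 14.14 with vehicle, and 10.48, 13.33 and 11.24 in wild type mice. Wild type array 2 lay close to the ob/ob arrays, and the difference was 2.39 ± 0.66 (adjusted p = 0.0379 by limma). Stard4 read 7.84, 7.23 and 7.98 with VE, 7.28, 7.97 and 8.04 with vehicle, and 10.27, 10.20 and 9.09 in wild type mice. All ob/ob arrays lay below all wild type arrays, with ob/ob vehicle at -2.09 ± 0.37 against wild type (adjusted p = 0.00467 by limma), and wild type arrays 1 and 2 were again the high ones.

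Among efflux genes the export transporter Abcg1 gave the smallest p of the 28 genes. It read 10.17, 11.05 and 10.28 with VE, 10.54, 10.70 and 10.35 with vehicle, and 6.35, 6.66 and 7.12 in wild type mice. The ob/ob vehicle and wild type arrays were more than 3 log2 units apart, with a difference of 3.82 ± 0.30 (SE, n = 3; limma adjusted p = 4.37e-05). Nr1h3, which encodes the receptor LXR alpha, read 11.41, 10.90 and 10.53 with VE, 11.30, 10.54 and 10.22 with vehicle, and 8.48, 7.57 and 9.58 in wild type mice. The ob/ob vehicle arrays lay above the wild type arrays, by 2.14 ± 0.49 (adjusted p = 0.0159 by limma).

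Abca1, the transporter that loads apolipoprotein particles and a known LXR target like Abcg1, did not pass. It read 14.97, 14.71 and 14.29 with VE, 14.17, 14.55 and 15.47 with vehicle, and 13.21, 14.21 and 14.75 in wild type mice. The groups overlapped, and the difference between ob/ob vehicle and wild type was 0.67 ± 0.44 (adjusted p = 0.362 by limma), with a 95% interval of -0.30 to 1.65. Apoe, the lipoprotein made by fat cells and macrophages, read 19.32, 19.36 and 19.64 with VE, 19.33, 19.30 and 19.12 with vehicle, and 18.85, 18.81 and 19.42 in wild type mice. Wild type array 3 lay within the ob/ob range, and the difference of 0.22 ± 0.24 did not pass (adjusted p = 0.601 by limma). Ch25h, an enzyme that makes an oxysterol, read 4.38, 4.03 and 3.91 with VE, 4.81, 4.48 and 4.26 with vehicle, and 4.40, 6.26 and 4.29 in wild type mice. All 9 values lay below the median of their array, which ran from 6.26 to 6.37 over the arrays.

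Storage, transport and efflux genes were then set beside the synthesis enzymes. Of 8 such genes, 4 rose in ob/ob vehicle mice relative to wild type, 1 fell and 3 did not pass, against 7, 1 and 8 of the 16 synthesis enzymes, where 9.02% of all clusters were called higher and 5.05% lower. Their median log2 difference was 1.41, against 0.95 for synthesis. Taken apart, it was 2.39 for the 3 transport genes and 0.67 for the 5 efflux and LXR genes, the latter below synthesis. Synthesis stood at -0.46 relative to the 8 storage and efflux genes pooled. This value was -0.22 without wild type array 1, -0.25 without wild type array 2, -0.27 without ob/ob vehicle array 1, and -1.195 without the dimmest 30% of clusters, which drops Ch25h. The order of the medians turned round, to 0.29, in the fit that leaves out wild type arrays 1 and 2: synthesis then stood at 0.96 and storage and efflux at 0.67. In that fit Abcg1 (3.41), Npc1 (3.40) and Npc2 (2.83) passed (adjusted p from 0.000506 to 0.0122 by limma), and Nr1h3 (1.11; adjusted p = 0.179) and Stard4 (-1.33; adjusted p = 0.0731) did not. The call for Npc2 also ended without wild type array 1 or 3, any ob/ob vehicle array, or VE array 2 (adjusted p from 0.0625 to 0.109 by limma), and that for Nr1h3 ended without ob/ob vehicle array 1 (0.0624). Beside these genes the macrophage list had a median difference of 4.67 and the epithelium list one of -4.08 in the same comparison, and the part of either cell type in the results was not tested.

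Other genes of sterol handling were listed to see how far the differences reached, and 30 of 37 were matched. Between ob/ob vehicle and wild type mice 5 rose, 1 fell and 24 did not pass, with a median log2 difference of 0.33; of all clusters, 14.1% were called. Without wild type arrays 1 and 2, 3 rose and 0 fell in limma, where 11.3% of all clusters were called: Nceh1 (6.06), Pltp (2.61) and Smpdl3a (2.31). Nceh1, which hydrolyses cholesteryl esters in macrophages, averaged 14.06 ± 0.78 (SD, n = 3) in ob/ob vehicle and 8.52 ± 0.70 in wild type mice, a 46.4-fold difference (limma adjusted p = 4.41e-05). Pltp, the phospholipid transfer protein and an LXR target, averaged 15.29 ± 0.46 in ob/ob vehicle and 10.79 ± 1.8 in wild type mice. Smpdl3a, a phosphodiesterase, averaged 13.75 ± 0.18 in ob/ob vehicle and 11.30 ± 0.12 in wild type mice. The sterol transfer protein Gramd1a (1.45 ± 0.34, SE) and the lipoprotein receptor Vldlr (1.34 ± 0.33) were higher too, while Cyp7b1, an oxysterol hydroxylase, was lower at -1.0 ± 0.29 (adjusted p = 0.0474 by limma). Without those arrays these 3 genes kept their direction and did not pass (adjusted p from 0.130 to 0.236 by limma).

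The VE group was compared with the vehicle group, both ob/ob, to look for a difference with the extract. None of the 28 genes passed: 0 had an adjusted p under 0.05 in limma, and 0 had an unadjusted p under 0.05. Over all clusters 0.0255% passed the adjusted threshold and 4.56% the unadjusted one. Differences ran from -0.50 for Mvd to 0.57 for Insig2, with a median of -0.050, against -0.023 over all clusters. Insig2 had the smallest unadjusted p of the 28, at 0.101 in limma, with a 95% interval of -0.13 to 1.27 on the log2 scale. Groups did not overlap for Mvk (0.33 ± 0.32, SE, n = 3) and Fdft1 (0.51 ± 0.31), that is for 2 of 28 genes, against 12.6% of all clusters.

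The intervals show what size of difference these arrays allow. For Abcg1 the difference between VE and vehicle was -0.03, with a 95% interval of -0.70 to 0.64, and for Hsd17b7 it was -0.14, with an interval of -0.71 to 0.43. Both intervals end far short of the distance of these genes from wild type mice. For Dhcr7 the difference was -0.39 (-1.39 to 0.61), and for Hmgcs1 it was -0.29 (-1.12 to 0.54). Wider intervals applied to Fdps (-1.23 to 2.11) and Npc2 (-1.34 to 1.61). Synthesis enzymes had a median of -0.075, and storage and efflux genes one of 0.053. The 30 other sterol genes also gave 0 calls in limma, 0 of them with an unadjusted p under 0.05.

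Within the VE group most synthesis genes were highest on the same array. With 1 array per sample, whether the mice or the handling of the arrays differed was not tested. VE array 1 held the highest value of its group for 14 of 16 synthesis enzymes, against 37.3% of all clusters, and Fdft1 and Msmo1 were highest on VE array 3. VE array 2 was the lowest of its group for 11 of the 16, against 6193 of all 19572 clusters. The median deviation of the 16 genes from their group mean was 0.45 on VE array 1, -0.30 on array 2 and -0.20 on array 3. Insig1 was also highest on VE array 1, at 14.59, and lowest on VE array 2, at 12.31. The hepatocyte list, which averaged 12.13, 13.49 and 15.08 on VE arrays 1, 2 and 3, was lowest on the array where synthesis was highest. In ob/ob vehicle mice it averaged 12.04, 13.37 and 13.06, lowest on array 1, where synthesis was also lowest, and in wild type mice 11.99, 7.19 and 14.70. Its part in the spread was not tested. No array of the other groups held so many of the highest values. The most were 7 of 16 on ob/ob vehicle array 2 (31.3% of all clusters) and 8 of 16 on wild type array 2 (31.6%). Lowest values did gather in a like way outside the VE group. Ob/ob vehicle array 1 was the lowest of its group for 10 of the 16, against 6961 of all 19572 clusters. Its median deviation was -0.22. Without VE array 1 the synthesis median for VE minus ob/ob vehicle was -0.29, and 0 of 28 genes passed in limma.

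**Figure D4:**
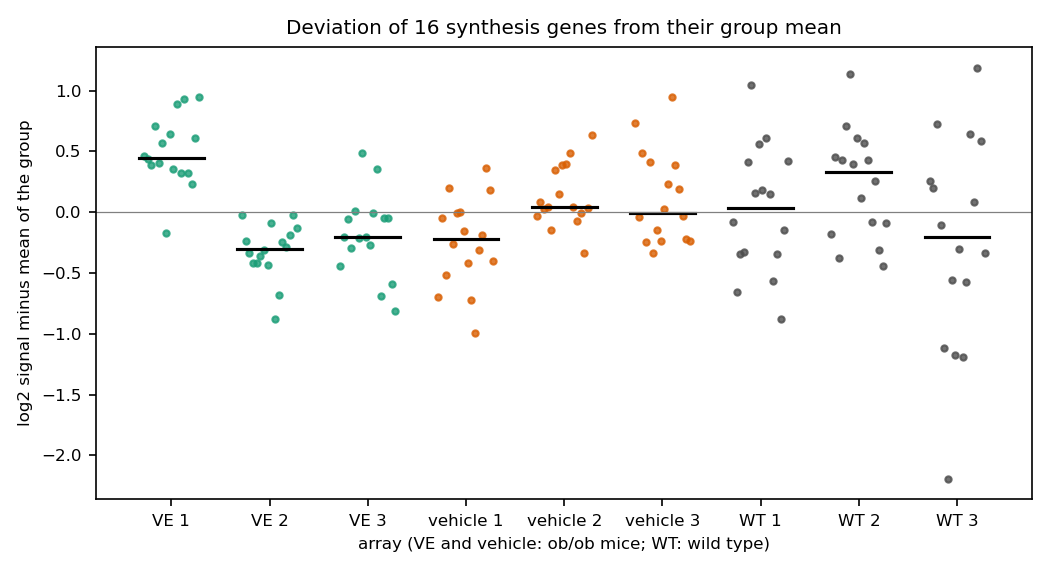
Log2 signal of each of the 16 synthesis enzymes minus the mean of its group (y axis) on each array (x axis); points are genes and black bars are medians. The points of VE array 1 lie above 0 except for 1 gene, with a median of 0.45, while wild type array 3 shows the widest spread.

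The VE group was also compared with wild type mice, the same wild type arrays as above, so the 2 comparisons share them. Of the 28 genes, 11 rose in VE mice, 2 fell and 15 did not pass, where 12.4% of all clusters were called higher and 7.58% lower (20.0% in all). The groups did not overlap for 14 of the 28, against 37.2% of all clusters, while 33.9% of all clusters had an unadjusted p under 0.05. Abcg1 was higher by 3.79 ± 0.30 (log2, SE, n = 3; limma adjusted p = 4.35e-05), Dhcr7 by 3.04 ± 0.45 and Hsd17b7 by 1.93 ± 0.26. Npc1 was higher by 2.94 ± 0.53, Npc2 by 2.53 ± 0.66 and Nr1h3 by 2.40 ± 0.49. Ebp (2.22 ± 0.46), Pmvk (1.56 ± 0.37), Hmgcs1 (1.52 ± 0.37) and Mvk (1.49 ± 0.32) were higher as well, while Stard4 (-2.17 ± 0.37) and Fdft1 (-1.39 ± 0.31) were lower. Insig2 passed here at 1.23 ± 0.32 (adjusted p = 0.0219 by limma) and Sc5d did not at 1.05 ± 0.36 (adjusted p = 0.0628). In the direct comparison of VE with vehicle, neither Insig2 nor Sc5d (-0.49 ± 0.36) passed, so these genes were not shown to differ between the 2 ob/ob groups.

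Without wild type arrays 1 and 2, Abcg1 (3.38), Npc1 (3.67), Dhcr7 (3.37), Npc2 (2.97), Hsd17b7 (1.84) and Mvk (1.29) still passed against wild type, with 0.0352 as the highest adjusted p in limma, and Fdps was newly called at 2.39 (adjusted p = 0.0054). Ebp (1.03), Nr1h3 (1.37), Stard4 (-1.41), Hmgcs1 (1.26), Pmvk (0.83), Fdft1 (-0.83) and Insig2 (0.66) kept their direction and did not pass there (adjusted p from 0.0504 to 0.281 by limma). Calls that ended without a single array were those of Hmgcs1 (VE array 1 or 2, adjusted p 0.0745 at most by limma), Pmvk (wild type array 1 or VE array 1, 0.0691 at most) and Fdft1 (VE array 1 or 2, 0.0543 at most). The same held for Npc2 (wild type array 1 or VE array 1 or 2, 0.0939 at most) and Insig2 (wild type array 1 or 2 or VE array 2 or 3, 0.0831 at most). Of the 30 other sterol genes, 8 were higher in VE than in wild type mice and 1 was lower, against 20.0% of all clusters called. Nceh1 (5.30 ± 0.44), Pltp (4.77 ± 0.72), Smpdl3a (2.43 ± 0.24) and Gramd1a (1.60 ± 0.34) had the highest t. Lpcat3, an LXR target that remodels phospholipids (0.99 ± 0.25), the bile acid receptor Nr1h4 (1.27 ± 0.35) and the apolipoprotein Apoc1 (2.72 ± 0.86; adjusted p = 0.0495) were higher with the lowest t, and Cyp7b1 was lower (-0.96 ± 0.29). Without wild type arrays 1 and 2, Nceh1 (5.82), Pltp (2.88) and Smpdl3a (2.29) passed and the other 6 did not, while 14.2% of all clusters were called.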

How the data were processed

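The submitters deposited log2 values after SST-RMA normalization, with 2 decimals, 1 for each cluster on each array (Transcriptome Analysis Console 4.0.2 per the series' design text, 4 per the submitters' processing notes). About 100 ng of RNA was used per sample. The genome build is not given in the sources used here. The number of arrays, and no read depth, sets the precision. Nothing says whether the 3 samples of a group were processed apart, so p-values measure the spread between these samples.

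Of 22206 clusters, the platform annotation gives 1 symbol to 19572, which were tested as deposited, and none to 2634. A model of 3 group means over 9 arrays was fitted (limma 3.58.1, R 4.3.3) with empirical Bayes moderation; tests were two-sided, with Benjamini-Hochberg adjustment per comparison. An exact permutation test of 3 against 3 reaches 0.1 at best. An SE or 95% interval is that of the fitted log2 difference. The fit was tested on simulated data. Values on every array are given for genes called in any comparison and for the 3 of each role with the largest absolute moderated t between ob/ob vehicle and wild type or between VE and vehicle; of other sterol genes, the called ones with the 4 highest and 4 lowest t are named. For Fdps, Sqle and Cyp51, the values on the ob/ob vehicle and wild type arrays were given after they were seen. The members and lists were chosen with earlier results of these data known. For the other sterol genes and the marker lists, the fit without wild type arrays 1 and 2 was chosen after seeing the data.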

Additional observations from a re-analysis of the deposited data

How the results depend on the processing

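Of 28 genes, 13 passed in ob/ob vehicle against wild type mice (14.1% of all clusters), and 5 did without empirical Bayes (8.56%), 7 without wild type arrays 1 and 2 (11.3%), and 8 to 15 with 1 array left out (8 without ob/ob vehicle array 1 or 2, at 10.3% and 8.38%). In VE against wild type mice 13 passed (20.0% of all clusters), with 7 (14.2%) lacking wild type arrays 1 and 2 and 9 to 16 with 1 array left out (9 without VE array 1, at 11.8%). With 1 array left out, the highest counts, 15 and 16, came without wild type array 3 (18.1% and 24% of all clusters). In VE against ob/ob vehicle mice the count was 0 in all 22 alternatives. Abcg1, Dhcr7 and Hsd17b7 passed in every alternative of both comparisons with wild type mice. Against wild type mice, the transport genes had medians of 2.39 in ob/ob vehicle and 2.53 in VE. Those of the efflux and LXR genes were 0.67 and 0.60, below synthesis at 0.95 and 0.97. The synthesis median relative to that of storage and efflux was -0.46 in ob/ob vehicle and -0.54 in VE against wild type mice. It was -0.62 to -0.22 and -0.64 to -0.18 with 1 array left out, -1.195 and -1.44 without the dimmest 30% of clusters, which drops Ch25h, and 0.29 and 0.35 without wild type arrays 1 and 2. For VE against ob/ob vehicle it was -0.13, and -0.24 to 0.017 with 1 array left out. Fdps turned from -0.24 to 1.95 in ob/ob vehicle against wild type mice without wild type arrays 1 and 2; the cause was not tested. With the replicate number as a block, 12 genes passed in ob/ob vehicle against wild type mice (13.1% of all clusters). In that fit 0 passed in VE against ob/ob vehicle mice (0%) and 13 in VE against wild type mice (19.1%). The numbers were not taken as pairs, since same-numbered arrays correlated at -0.064 to 0.181 in their deviations from group means and 7 of 18 matches were best with the same number. Other alternatives changed no count by over 1.5 times: 2 groups only, median centring, quantile normalization, a trended or robust prior, array weights, the dimmest 30% left out, every cluster, the submitters' threshold and an adjusted p under 0.1. Quantile normalization lowered the synthesis median from 0.95 to 0.65 in ob/ob vehicle and from 0.97 to 0.48 in VE against wild type mice. It ended the calls of Ebp and Npc2 in ob/ob vehicle and of Hmgcs1 in VE, and Srebf2 was newly called lower in VE. Signal over background could not be given, since detection calls were not used here.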
